A study of Homo sapiens with 2 samples.

Results

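The glycine, histidine and proline tRNA gene copies were taken from count tables of RNA crosslinked to hTrmt13. They were all features of biotype tRNA named for 1 of these 3 isotypes, and tRNA lookalikes (features named tRX) were left out. This gave 71 of the 549 listed tRNA gene copies, namely 36 for glycine, 10 for histidine and 25 for proline. The counts come from CLIP-seq, an assay that pulls a protein down by antibody and sequences the RNA crosslinked to it. The cells were MDA-MB-231, an established human breast carcinoma line, and the series states that this assay was meant to find which tRNAs the enzyme binds. There was 1 group, the hTrmt13 CLIP libraries, with 2 replicates. The RNA of both was treated with AlkB-type enzymes that remove RNA modifications, so no library shows the untreated state. The labels name no treatment or time, and they do not say whether the replicates are separate cultures, so an SD may reflect technical spread only. With 0 input or antibody control libraries analysed, a share of counts cannot be read as an enrichment.

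A tRNA carries an amino acid to the ribosome and reads a codon through its anticodon. Trm13 is a 2'-O-methyltransferase, and in yeast it modifies position 4 of the acceptor stem in glycine, histidine and proline tRNAs, which is why these isotypes are described here. The human genome holds many copies of most tRNA genes. Copies named alike except for the last number form an isodecoder and have the same mature sequence under the naming scheme, and sequences with the same anticodon but a different body are separate isodecoders.

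The sequences below show which members differ in the region of the methylation site and which do not differ at all. Capitals mark position 4, counted from 1 at the 5′ end of the gene, and then the anticodon. Of the 71 members, 66 matched a RefSeq symbol, 59 of them an entry of type tRNA, and the sequence of 9 could be read whole from RefSeq promoter windows (GRCh38.p14) or GENCODE 29 transcripts (GRCh38). These 9 belong to 5 isodecoders. tRNA-His-GTG-1-3, tRNA-His-GTG-1-7, tRNA-His-GTG-1-8 and tRNA-His-GTG-1-9 were identical over all 72 bases, and so were tRNA-Pro-TGG-3-2 and tRNA-Pro-TGG-3-5, so 1 sequence is given for each set.
tRNA-Gly-CCC-2-2: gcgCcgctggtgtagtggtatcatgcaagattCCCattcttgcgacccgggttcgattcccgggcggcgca
tRNA-Gly-GCC-2-4: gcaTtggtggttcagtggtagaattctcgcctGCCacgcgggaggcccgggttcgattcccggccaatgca
tRNA-His-GTG-1-3: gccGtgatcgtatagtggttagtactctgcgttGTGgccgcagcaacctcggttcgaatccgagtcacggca
tRNA-Pro-CGG-1-3: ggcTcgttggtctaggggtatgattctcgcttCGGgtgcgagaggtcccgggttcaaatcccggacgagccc
tRNA-Pro-TGG-3-2: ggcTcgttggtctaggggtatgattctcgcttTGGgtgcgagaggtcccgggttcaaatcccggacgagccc
The base at position 4 was C in tRNA-Gly-CCC-2-2, T in tRNA-Gly-GCC-2-4 and in both proline sequences, and G in the histidine sequence. The glycine sequences differed from each other at 24 of 71 bases. The proline sequences differed at 1 of 72 bases, C33T from tRNA-Pro-CGG-1-3 to tRNA-Pro-TGG-3-2, which lies in the anticodon. A read that does not cover that base cannot be assigned to CGG or TGG from the mature sequence, and no read of the mature sequence alone can be assigned to 1 of the 4 histidine copies. How reads with several matches were placed is not given in the sources used here, so counts of single copies are uncertain throughout.

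Each replicate had a count table for each read mate, R1 and R2. For replicates 1 and 2, the total count was 11246823 and 8793089 in R2, against 27907799 and 20590398 in R1. tRNA features took 54.7 to 63.5% of the counts of the 4 tables. Across the 66 members with a mean R1 count of at least 10, log2(CPM + 0.5) of the replicates had a Pearson correlation of 0.997 in R1 and 0.995 in R2, where CPM is the count scaled to the table's total. These copies share libraries and sequences and are not independent. As a check of the cell line, VIM, which encodes the mesenchymal filament protein vimentin, had 382 counts in replicate 1 and 722 in replicate 2 (R1), and ZEB1, a repressor of epithelial genes, had 234 and 282. The surface receptor genes CD44 and AXL had only 7 to 16. The epithelial cadherin gene CDH1, low in this line, still had 40 and 51, and the epithelial genes EPCAM, KRT8 and KRT18 had 20 to 49, while the mesenchymal-type gene CAV1 had 13 and 29. Of the receptor genes that are low in this line, PGR had 0 and 4 and ESR1 had 4 and 20, but ERBB2 had 114 and 201. Counts of RNA bound to an enzyme are not expression levels, and these values neither contradict the label nor establish it.

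Gly, His and Pro copies were recovered from nearly the whole set but with a low ceiling. Of the 71 members, 66 (93.0%) had a mean R1 count of at least 10, against 397 of the 478 other tRNA gene copies (83.1%). The median copy of the 3 isotypes had 1661 R1 counts in replicate 1 and 1372 in replicate 2, against 2152 and 1390.5 for the other tRNA gene copies. The mean copy had 3892 and 3330 counts, against 33684 and 23226 for the others. The highest member copy reached 19965 in replicate 1 and 20366 in replicate 2, whereas the highest other copy, tRNA-Arg-CCT-2-1, reached 2698655 and 1864498. Some other isotypes had a like or lower ceiling. Their highest copies were tRNA-Gln-TTG-1-1, with 27113 and 17189, tRNA-Tyr-GTA-5-3, with 28576 and 18992, and tRNA-Val-TAC-2-1, with 3134 and 4559. A low ceiling is thus not particular to these 3 isotypes. The medians of the sets thus lay close together, while their means and their highest copies did not.

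Among the 24 isotypes named in the tables, the place of these 3 depended on whether the mean or the median copy was taken. By the mean R1 count per copy, His ranked 15th, Pro 17th and Gly 19th in both replicates. By the median copy, Pro ranked 13th, Gly 15th and His 19th, again in both. Histidine tRNA has few genes, and its median copy had only 183 and 164 R1 counts while its mean copy had 7558 and 6018.

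**Figure D1:**
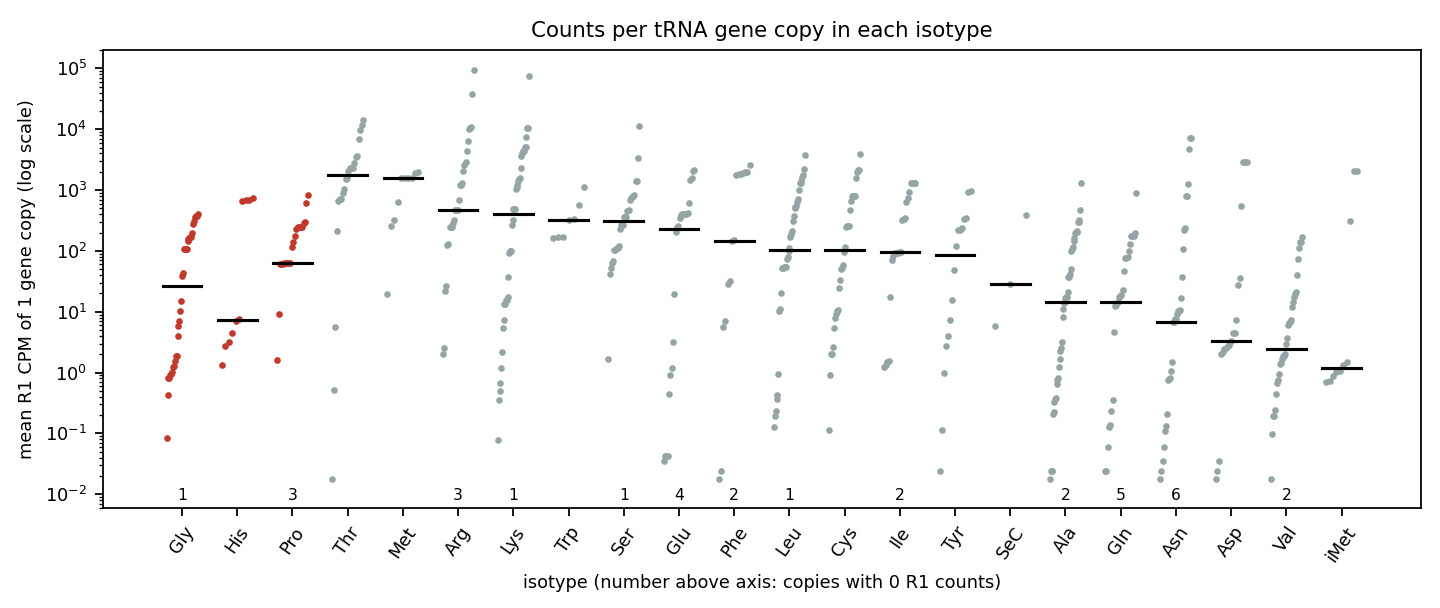
R1 CPM (mean of 2 replicates, log scale) of every tRNA gene copy, by isotype, with Gly, His and Pro in red at the left and the other isotypes in grey; black lines are medians and the numbers above the axis give copies with 0 R1 counts. The isotypes named Und and Sup are not drawn. The red copies spread over the lower and middle range, and the His copies fall into 4 high copies and 6 low ones.

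The count minimum was missed by 5 members. tRNA-Gly-CCC-8-1, tRNA-Pro-TGG-5-1 and tRNA-Pro-GGG-1-1 had 0 counts in all 4 tables, which in the R1 table of replicate 1 allows a share of up to 1.79e-05% of tRNA counts (3 counts; counting error only). tRNA-Pro-AGG-4-1 had 1 count in all, and tRNA-Gly-GCC-6-1 had 2 R1 counts in each replicate. tRNA-Pro-GGG-1-1 is the only listed gene with the anticodon GGG, so that anticodon was not detectable at this depth. The members above the minimum were mostly 71 or 72 bases long, while tRNA-Gly-CCC-7-1 spans 61 bases and tRNA-Pro-AGG-3-1 spans 95.

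A few isodecoders held most counts of each isotype. Of 34 isodecoders, 11 held at least 5% of their isotype's R1 counts. For glycine these were 6 of 20 isodecoders, from all 3 anticodons. tRNA-Gly-GCC-2 took 45.2% ± 2.47 of the glycine counts in R2 and 27.4% ± 1.00 in R1 (SD, n = 2 each), and tRNA-Gly-GCC-1 took 15.9% ± 0.770 in R2 and 21.6% ± 1.01 in R1. tRNA-Gly-CCC-2 took 12.5% ± 1.64 in R2 and 15.96% ± 2.00 in R1 (SD, n = 2 each). The mates moved GCC-2 and GCC-1 in opposite directions, in each case by more than the SD of the replicates. tRNA-Gly-TCC-1, tRNA-Gly-TCC-2 and tRNA-Gly-TCC-3 each took between 10.3 and 10.8% of the R1 counts and between 7.57 and 7.97% of the R2 counts. These 3 isodecoders thus differed little. They have 1, 6 and 1 copies, but tRNA-Gly-TCC-2-6 alone held 98.9% and 98.6% of the R1 counts of its isodecoder in replicates 1 and 2. The other isodecoders of this anticodon, tRNA-Gly-TCC-4, tRNA-Gly-TCC-5 and tRNA-Gly-TCC-6, took only 0.0421%, 0.0513% and 0.0520% of the glycine counts in R1.

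Histidine tRNA was in effect 1 isodecoder. tRNA-His-GTG-1, with 9 copies, took 99.59% ± 0.104 of the histidine counts in R2 and 99.75% ± 0.0139 in R1 (SD, n = 2 each). tRNA-His-GTG-2-1, the only copy of the other isodecoder, had 238 and 135 R2 counts against 181 and 156 R1 counts.

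For proline, 4 of 12 isodecoders passed 5%, and their order differed between mates. tRNA-Pro-AGG-2 took 40.03% ± 0.355 of the proline counts in R2 and 29.4% ± 1.37 in R1, while tRNA-Pro-TGG-3 took 26.1% ± 0.0517 in R2 and 35.7% ± 1.53 in R1 (SD, n = 2 each). AGG-2 therefore led in R2 and TGG-3 in R1. tRNA-Pro-TGG-2 took 11.7% ± 0.00562 in R2 and 14.4% ± 0.199 in R1, and tRNA-Pro-CGG-1 took 14.4% ± 0.0997 in R2 and 9.98% ± 0.671 in R1 (SD, n = 2 each). Each of these shifts between mates was larger than the SD of the replicates.

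**Figure D2:**
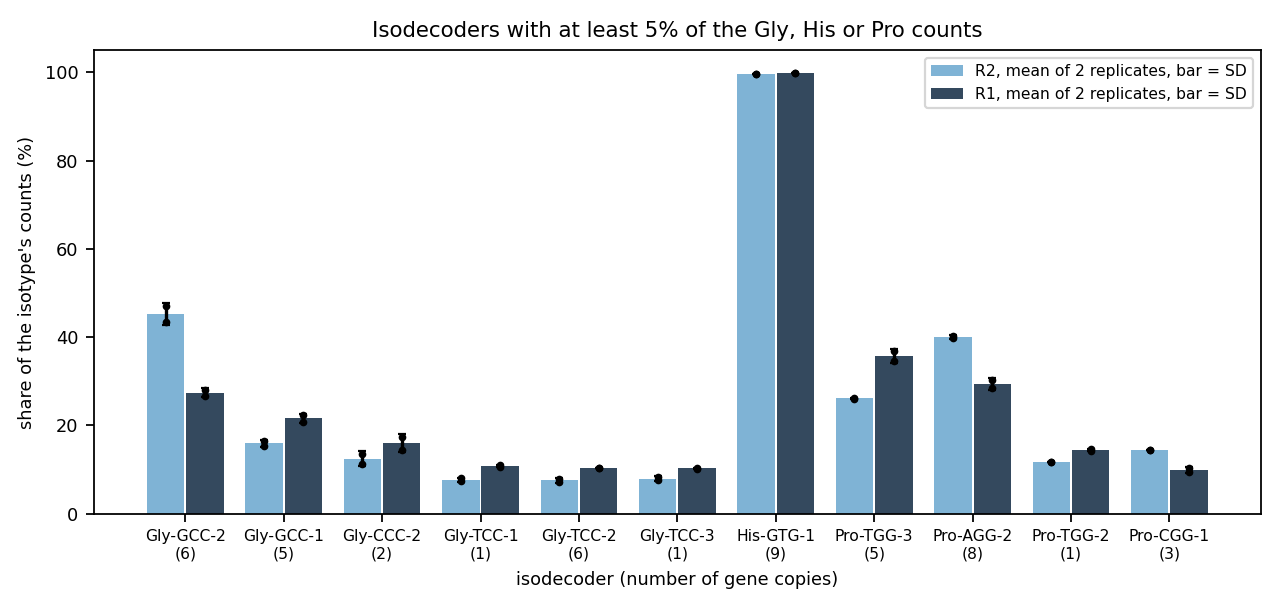
Share of the isotype's counts (%) taken by the 11 isodecoders with at least 5%, in R2 (light bars, left) and R1 (dark bars, right); bars are means of 2 replicates, dots the replicates, error bars the SD. tRNA-Gly-GCC-2 and tRNA-Pro-AGG-2 stand higher in R2 and tRNA-Pro-TGG-3 in R1, and tRNA-His-GTG-1 holds nearly all histidine counts in both.

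Copies of the same isodecoder did not have equal counts, and they separated by the strand on which the gene lies. This split was noticed in the data and has no test. Of the 9 isodecoders with several copies, 8 have copies on both strands. The medians of the strands were at least 2-fold apart in both replicates in 8 of the 8 isodecoders in R2 and in 7 in R1. Among all 45 tRNA isodecoders with copies on both strands, 82.2% met this in R2 and 71.1% in R1, so the split is common among tRNA genes and is not particular to these isotypes. The higher strand was not always the same. In R1 it was plus for 3 of the 8 isodecoders, minus for 4 and neither for 1, against 42.2% plus and 28.9% minus among all 45. The part of read placement in the split was not tested.

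Within a strand, copies of most isodecoders were close to equal. The highest over the lowest R1 count of the members had a median of 1.10 in replicate 1 and 1.13 in replicate 2 over 12 sets of copies on the same strand, but 4.73 and 4.998 over the 9 isodecoders as a whole. For the other tRNA genes these medians were 1.08 and 1.07 over 49 sets on the same strand, and 2.37 and 2.57 over 51 isodecoders. The 4 minus copies of tRNA-Pro-AGG-2, on chromosomes 1, 14 and 16, had 6429, 6339, 6351 and 6342 R1 counts in replicate 1, and the variance of the R1 counts was 0.288 times their mean in replicate 1 and 1.45 times in replicate 2. For the 4 plus copies of tRNA-Gly-GCC-1 it was 0.0932 and 0.245 times the mean in R1. Independent Poisson counts have a variance about equal to their mean, so these R1 counts differed by about as much as counting error or less. Other sets varied far more. The 5 minus copies of tRNA-His-GTG-1 were 11.6-fold apart in R1 of replicate 1 and 4-fold in replicate 2, the 3 plus copies of tRNA-Pro-TGG-3 3.54-fold and 3.79-fold, and its 2 minus copies 2.47-fold and 3.16-fold. The plus copies of tRNA-His-GTG-1 were only 1.10-fold and 1.13-fold apart, but at their high counts the variance was 37.5 and 52.5 times the mean.

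The histidine copies split widely by strand. The 4 plus copies of tRNA-His-GTG-1 had 18126 to 19965 R1 counts in replicate 1 and 14289 to 16195 in replicate 2. They lie on chromosomes 1 (tRNA-His-GTG-1-2 and tRNA-His-GTG-1-3), 6 (tRNA-His-GTG-1-5) and 15 (tRNA-His-GTG-1-9). The 5 minus copies had 16 to 185 and 43 to 172. The R1 ranges of the strands did not overlap in either replicate. This held for every tRNA isodecoder with copies on both strands except tRNA-Thr-AGT-1 in replicate 2, so it is not particular to histidine. Where each strand has 1 copy, the ranges cannot overlap unless the counts are equal. Many of these isodecoders have few copies, so their lack of overlap says little. The plus copies held 99.4% of the R1 counts of the isodecoder in replicate 1 and 99.3% in replicate 2. Among the sequences shown above, tRNA-His-GTG-1-3 and tRNA-His-GTG-1-9 are plus copies and tRNA-His-GTG-1-7 and tRNA-His-GTG-1-8 minus copies, so genes with identical sequence differed by over 100-fold in R1. Within chromosome 15, tRNA-His-GTG-1-9 (45493349 to 45493420, plus; hg19) had 18523 and 14711 R1 counts, against 88 and 66 for tRNA-His-GTG-1-8 (45492611 to 45492682, minus), which lies less than a kilobase away.

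Glycine copies with the anticodon TCC fell into 3 high copies and 8 low ones. tRNA-Gly-TCC-1-1 (chromosome 19, 4724082 to 4724153, plus) had 10123 R1 counts in replicate 1 and 8981 in replicate 2. tRNA-Gly-TCC-3-1 (chromosome 17, 8124866 to 8124937, plus) had 9771 and 8448, and tRNA-Gly-TCC-2-6 (chromosome 1, 161500903 to 161500974, plus) had 9713 and 8305. The other 8 copies, of 4 isodecoders, had 14 to 57 and 20 to 40. The 5 minus copies of tRNA-Gly-TCC-2 were among these, so tRNA-Gly-TCC-2-6 alone held 98.9% and 98.6% of its isodecoder. The 3 high copies belong to different isodecoders and had nearly the same count, and all 3 lie on the plus strand, but so do tRNA-Gly-TCC-5-1 and tRNA-Gly-TCC-6-1, which had 51 and 57 counts in replicate 1.

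The anticodon GCC gave the opposite order for tRNA-Gly-GCC-1. Its minus copy tRNA-Gly-GCC-1-5 (chromosome 21, 18827107 to 18827177) had 9504 and 7927 R1 counts, 3.23 and 3.47 times the median of the 4 plus copies, which had 2918 to 2955 and 2243 to 2294. For tRNA-Gly-GCC-2, the 4 minus copies had 4423 to 5235 and 3565 to 4407 R1 counts and the 2 plus copies 4103 to 4126 and 3041 to 3409. The strand ranges did not overlap, as in nearly all tRNA isodecoders with copies on both strands, which says little where copies are few. The medians were only 1.09 and 1.15 times apart. The remaining 4 GCC copies, each the only one of its isodecoder, had at most 1138 and 738.

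Of the 10 glycine copies with the anticodon CCC, both copies of tRNA-Gly-CCC-2 held most counts. tRNA-Gly-CCC-2-2 (chromosome 16, 686736 to 686806) had 7124 and 7536 R1 counts and tRNA-Gly-CCC-2-1 (chromosome 2, 70476123 to 70476193) had 6743 and 6647. Both lie on the minus strand. For tRNA-Gly-CCC-1, the plus copy tRNA-Gly-CCC-1-2 had 1228 and 878 R1 counts and the minus copy tRNA-Gly-CCC-1-1 had 132 and 142. The 8 copies outside CCC-2 had a median of 121.5 and 111.

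A cluster on chromosome 1 shows both patterns side by side. Between 161409961 and 161500974 (hg19) lie 12 glycine copies. The plus copies tRNA-Gly-GCC-1-1 to tRNA-Gly-GCC-1-4 alternate along it with the minus copies tRNA-Gly-TCC-2-2 to tRNA-Gly-TCC-2-5. The GCC copies had 2918 to 2955 R1 counts in replicate 1 and 2243 to 2294 in replicate 2, and the TCC copies had 14 to 23 and 20 to 25. At the far end of the cluster, the minus copy tRNA-Gly-GCC-2-1 had 5235 and 4407 and the plus copy tRNA-Gly-TCC-2-6 had 9713 and 8305. The alternating GCC and TCC copies therefore differed by over 100-fold in replicate 1 and by slightly less for some neighbours in replicate 2, while within each of these sets the copies had like counts.

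**Figure D3:**
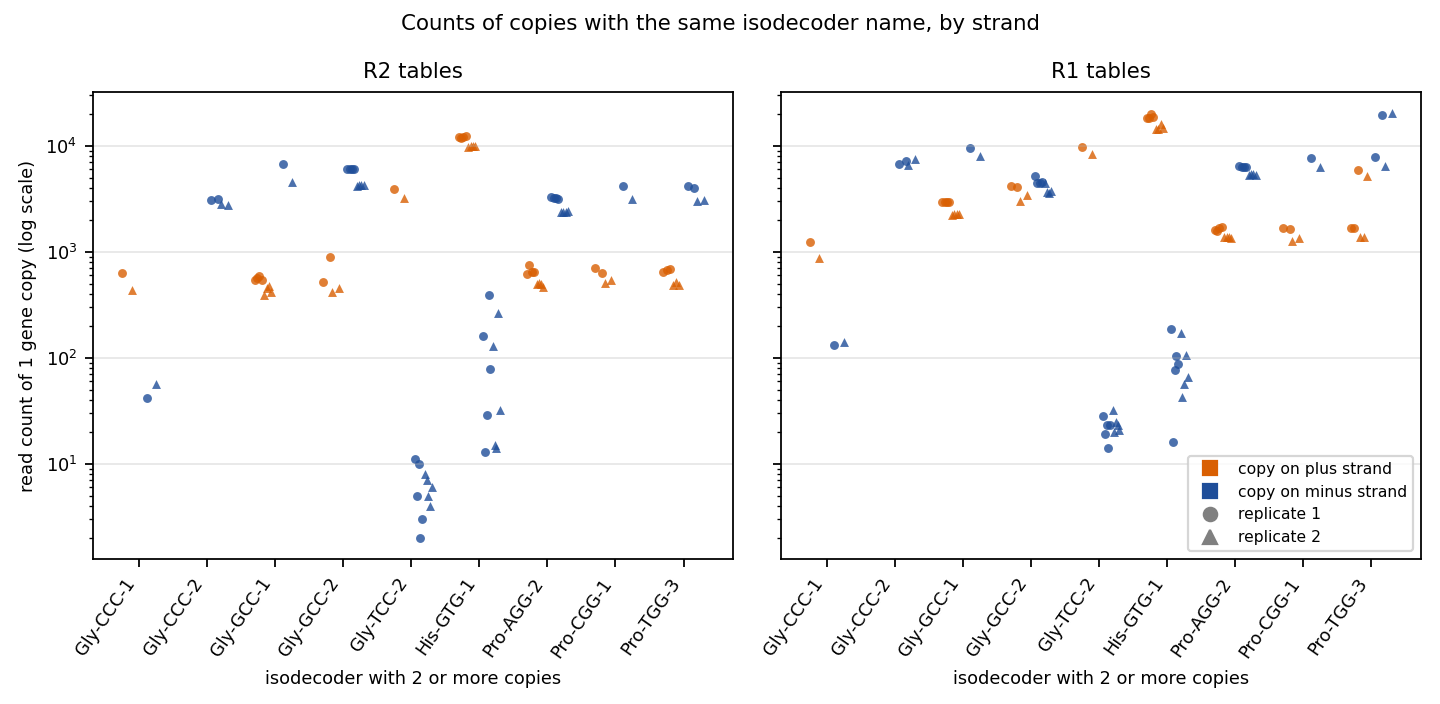
Read counts (log scale) of each copy of the 9 isodecoders with 2 or more copies, in R2 (left panel) and R1 (right panel); orange points are copies on the plus strand, blue points copies on the minus strand, circles replicate 1 and triangles replicate 2. Within a replicate, the orange and blue points separate in each isodecoder that has both. With 1 copy on each strand, as in Gly-CCC-1, any unequal counts do so. Plus lies above minus for Gly-CCC-1, Gly-TCC-2 and His-GTG-1 and minus above plus for the others. For Gly-GCC-2 in R1 the colours mix across replicates: plus copies had 4103 and 4126 in replicate 1, and minus copies 3565 to 4407 in replicate 2.

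Proline copies shared levels across anticodons. The 8 plus copies of tRNA-Pro-AGG-2, tRNA-Pro-CGG-1 and tRNA-Pro-TGG-3 other than tRNA-Pro-TGG-3-5 had 1571 to 1711 R1 counts in replicate 1 and 1274 to 1388 in replicate 2. The 6 minus copies of the same isodecoders other than tRNA-Pro-TGG-3-4 had 6339 to 7854 and 5254 to 6438. The 3 isodecoders thus shared a lower level on the plus strand. On the minus strand, tRNA-Pro-CGG-1-3, with 7730 and 6367, and tRNA-Pro-TGG-3-1, with 7854 and 6438, stood above the tRNA-Pro-AGG-2 copies, with 6339 to 6429 and 5254 to 5450. The exceptions, set apart after their values were seen, were tRNA-Pro-TGG-3-4 (chromosome 16, 3234133 to 3234204, minus), with 19409 and 20366, and tRNA-Pro-TGG-3-5 (chromosome 16, 3238094 to 3238165, plus), with 5876 and 5228. tRNA-Pro-TGG-3-5 has the same gene sequence as tRNA-Pro-TGG-3-2, which had 1686 and 1378. tRNA-Pro-TGG-2-1 (chromosome 11, 75946869 to 75946940, minus), the only copy of its isodecoder, had 15060 and 13786, the second highest proline counts.

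In R2 several of the proline copies that stood out in R1 lay close to the others. tRNA-Pro-TGG-3-4 had 3986 and 3066 R2 counts against 19409 and 20366 in R1, and in R2 it stood beside tRNA-Pro-TGG-3-1, with 4130 and 2996. tRNA-Pro-TGG-3-5 had 682 and 484 R2 counts against 5876 and 5228 in R1. tRNA-Pro-AGG-1-1 had 704 and 550 R2 counts against 4182 and 4040 in R1, and tRNA-Pro-TGG-1-1 had 696 and 488 against 3325 and 3348. With the 8 plus copies at the shared level, the 3 plus copies among these make 11 copies of 5 isodecoders, a set put together after their values were seen. In R2 all 11 ran from 618 to 745 in replicate 1 and from 464 to 550 in replicate 2, whereas in R1 they ran from 1571 to 5876 and from 1274 to 5228. Other plus copies lay outside that R2 range: tRNA-Pro-CGG-2-1 had 1377 and 1177 R2 counts against 3022 and 2534 in R1, and tRNA-Pro-AGG-3-1 had 5 and 5 in R2. The minus copy tRNA-Pro-TGG-2-1 had 4535 and 3398 R2 counts against 15060 and 13786 in R1, and was the highest proline copy in R2.

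Mates of a library come from the same fragments, so the counts of a copy in R2 and R1 were compared as shares of the tRNA counts of their tables. A copy was called where the R2 share was at least 2 times, or at most 0.5 times, the R1 share in both replicates. Of the 66 members past the minimum, 7 were higher in R2, against 11.7% of the 463 tRNA gene copies tested, and 13 were lower, against 25.7%. As shares, 10.6% of the members were higher and 19.7% lower, so neither count stood above the level among all tRNA genes. Across the 66 members the mates had a Pearson correlation of 0.951 in replicate 1 and 0.955 in replicate 2 on log2(CPM + 0.5), against 0.909 and 0.8995 across the 397 other copies. At the level of anticodons, Gly-GCC had R2 shares of 1.67 and 1.49 times its R1 shares in replicates 1 and 2, and His-GTG 1.52 and 1.60 times, while Pro-TGG had 0.659 and 0.533 times. The other anticodons with counts lay between 0.925 and 1.16.

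The direction of the shift followed the strand in tRNA-Gly-GCC-1 and tRNA-Gly-GCC-2, but not in every GCC isodecoder with 1 copy. The plus copy tRNA-Gly-GCC-5-1 had ratios of 1.41 and 1.83 and the minus copy tRNA-Gly-GCC-3-1 had 0.826 and 0.990. The 4 minus copies of tRNA-Gly-GCC-2 had 5998 to 6085 R2 counts in replicate 1 and 4208 to 4276 in replicate 2, against 4423 to 5235 and 3565 to 4407 R1 counts. All 4 were called higher, with ratios of shares from 2.302 to 3.23. The plus copies tRNA-Gly-GCC-2-5 and tRNA-Gly-GCC-2-6 had 521 and 884 R2 counts against 4126 and 4103 R1 counts in replicate 1, and 416 and 453 against 3041 and 3409 in replicate 2. The ratio of tRNA-Gly-GCC-2-5 was 0.296 and 0.330, and tRNA-Gly-GCC-2-6, at 0.505 and 0.320, missed the call in replicate 1. The minus copy tRNA-Gly-GCC-1-5 had 6762 and 4575 R2 counts against 9504 and 7927 in R1, and the 4 plus copies of GCC-1 had 536 to 586 and 394 to 471 against 2918 to 2955 and 2243 to 2294. The strand medians of GCC-2 were therefore 8.63 and 9.75 times apart in R2 and 1.09 and 1.15 times apart in R1. Those of GCC-1 were 12.3 and 10.5 times apart in R2 and 3.23 and 3.47 times in R1. In R2 the plus copies of GCC-1 and GCC-2 together lay at 521 to 884 and 394 to 471.

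**Figure D4:**
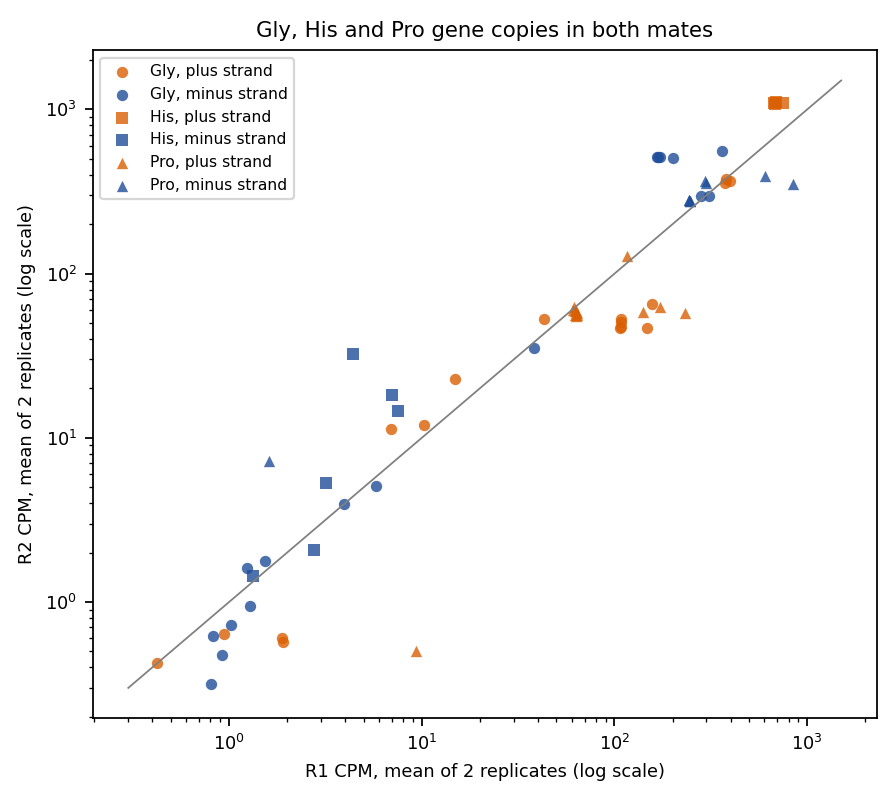
R2 against R1 CPM (means of 2 replicates, log scales) of the 66 members with a mean R1 count of at least 10, with the shape by isotype and the colour by strand; the grey line marks equal values. The 4 minus copies of tRNA-Gly-GCC-2 lie above the line at 505.9 to 513.7 R2 CPM, and 9 plus copies of Gly and Pro lie well below it, at 46.4 to 65.1 R2 CPM. Other copies lie well below it too, among them the plus copy tRNA-Pro-AGG-3-1 (9.30 R1 and 0.507 R2 CPM). So do the plus copies tRNA-Gly-TCC-5-1 and tRNA-Gly-TCC-6-1 (0.608 and 0.571 R2 CPM) and the minus copy tRNA-Pro-TGG-3-4 (842 R1 and 352 R2 CPM).

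The copies with the extreme ratios of each isotype were mostly low ones, but the calls were not confined to low copies. With a minimum mean R1 count of 100, 6 members were still called higher and 10 lower, against 44 and 106 of 383 copies. tRNA-His-GTG-1-7 (chromosome 15, 45490804 to 45490875, minus) had 389 and 267 R2 counts against 103 and 106 R1 counts, ratios of shares of 8.85 and 6.07 and the highest of all members. tRNA-Pro-TGG-4-1 (chromosome 16, 3220961 to 3221031) had 92 and 56 against 48 and 31, ratios of 4.49 and 4.36. Among glycine copies the highest in replicate 1 was tRNA-Gly-GCC-2-2, with 6085 R2 against 4423 R1 counts and a ratio of 3.23, and in replicate 2 tRNA-Gly-GCC-2-3, with 4219 against 3565 and a ratio of 2.85. At the other end, tRNA-Pro-AGG-3-1, the longest member, had 5 and 5 R2 counts against 255 and 195 R1 counts, ratios of 0.0460 and 0.0618. Among glycine copies the lowest ratio in replicate 1 was that of tRNA-Gly-TCC-5-1, 0.276 with 6 R2 against 51 R1 counts, and in replicate 2 that of tRNA-Gly-GCC-4-1, 0.161 with 1 against 15. The lowest histidine copy was tRNA-His-GTG-1-6, with 29 and 14 against 77 and 57, a ratio of 0.883 and 0.592 that was not called. The 4 high histidine copies had ratios from 1.41 to 1.67 in both replicates and were not called.

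Between replicates the members kept their order but took a larger share of the tRNA counts in replicate 2. The R1 share of all 71 together was 2.04% in replicate 2 and 1.65% in replicate 1. The ratio of replicate 2 to replicate 1 was 1.24 for Gly, 1.15 for His and 1.30 for Pro, and the median over the 66 copies was 1.20, against 1.03 over the 397 others. With 2 libraries of 1 group this difference has no test. A rise was not particular to these isotypes, since the ratio was 1.62 for Val, 1.22 for Glu and 1.18 for Ala. Some isotypes went the other way, such as Phe with 0.858 and Ser with 0.847. Of the 66, 2 copies had a ratio of at least 2, against 3.02% of all 463 tested, and 0 had a ratio of at most 0.5, against 0.432%. The 2 were tRNA-His-GTG-1-4, with 43 R1 counts in replicate 2 and 16 in replicate 1, and tRNA-Gly-TCC-2-4, with 23 and 14. The lowest ratio was 0.677, for tRNA-Gly-GCC-4-1, with 15 and 32 counts. Among the 8 highest copies of each isotype, tRNA-Gly-CCC-2-2 had the highest ratio, 1.53, and tRNA-Pro-TGG-3-4 the next, 1.51. TMM scaling by edgeR scales libraries by a trimmed mean of ratios, here over all features with a mean R1 count of at least 10. Under it, 0 members had a ratio of at least 2. A ratio of at most 0.5 was found in 22 members and in 286 of all 463 tRNA gene copies.

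Where a member lies in another listed feature, that feature mostly had at least the count of the member. Of the 71 members, 33 lie in or over 24 other listed features, and these copies held 37.4% of the members' R1 counts in replicate 1 and 36.3% in replicate 2. In 39 of the 40 pairs of a copy past the minimum and a feature, the feature had at least the count of the copy. So it did in 15 of the 16 pairs on opposite strands. The 1 pair that failed, SHF with tRNA-His-GTG-1-9, was the only one where the feature does not hold the whole copy. A feature that holds a copy whole meets this by construction if each read is counted in every feature it overlaps on either strand. These counts of pairs are therefore no result about the members. The same share was not computed for the other tRNA genes. A feature that holds many tRNAs meets this easily. RP11-122G18.10, with 25 listed tRNAs, had 64385 and 56391 R1 counts in replicates 1 and 2. The copies tRNA-Gly-TCC-2-2 to tRNA-Gly-TCC-2-5 in it had 14 to 23 and 20 to 25. RP11-424M24.3 lies over tRNA-Gly-GCC-2-4 on the other strand and had the same count in all 4 tables, 4500 and 3757 in R1 of replicates 1 and 2. The counts of this pair therefore did not separate the strands. FCGR2A, an immunoglobulin receptor gene on the strand opposite to tRNA-Gly-GCC-2-1, had 5285 and 4454 R1 counts against 5235 and 4407 for that copy. RNASE11, a ribonuclease family gene around tRNA-Pro-AGG-2-5, had 6339 and 5452 against 6339 and 5450. Leaving SHF aside, the listed tRNAs in them summed to at least 90% of the feature's R1 count in both replicates in 14 of the 23 features, and to at least 99% in 9. The counts of those features were thus largely counts of tRNA.

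SHF, a gene for an adaptor protein with an SH2 domain, was the exception. It lies on the minus strand of chromosome 15 and holds tRNA-His-GTG-1-7 and tRNA-His-GTG-1-8 whole but only 25 of the 72 bases of tRNA-His-GTG-1-9, those at its 5′ side. SHF had 5226 and 2933 R1 counts against 18523 and 14711 for tRNA-His-GTG-1-9. After the counts of the other histidine copies were taken off, SHF could hold at most 27.2% of the R1 counts of tRNA-His-GTG-1-9 in replicate 1 and 18.8% in replicate 2. In R2 the limits were 55.6% and 28.4%. The remaining SHF counts may include reads from elsewhere in the gene, so these are upper limits and no interval is given. If every read that touches SHF was counted in it, at least 13488 and 11950 R1 reads of this copy did not reach its 5′ 25 bases, where position 4 lies. The minimum overlap used by the authors is not given in the sources used here, so these limits hold only for counting by any overlap and on both strands.

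The enzymes that charge these tRNAs were measured as RNA in the same tables. GARS, glycyl-tRNA synthetase, had 218 R1 counts in replicate 1 and 354 in replicate 2, and EPRS, the bifunctional glutamyl- and prolyl-tRNA synthetase, had 318 and 546. HARS, cytosolic histidyl-tRNA synthetase, had 92 and 129, and the mitochondrial enzymes HARS2 and PARS2 had 36 and 47, and 16 and 28. THG1L, the relative of the yeast enzyme that adds the extra guanosine to the 5′ end of histidine tRNA, had 12 and 25, and TRMT13 itself had 45 and 67. Levels were not compared between these genes, since counts per feature grow with length.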

How the data were processed

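CLIP-seq of hTrmt13 in MDA-MB-231 cells was analysed, 1 group with 2 replicates and 0 control libraries. The files deposited by the authors hold raw read counts (whole numbers) for each listed feature, in 1 table per mate and library. The build was hg19 (GRCh37) and the tools were Bowtie2 (2.3.5.1) and bedtools (2.24.0), per the submitters' processing notes. Not given in the sources used here are alignment options, the placement of reads with several matches, strand use and the overlap minimum. Of 741091 lines, 13 repeats were dropped, leaving 741078 features. Positions of copies are hg19 and 1-based: with starts taken as 0-based, 65 of the 66 members with a RefSeq symbol had the length RefSeq gives, and with starts taken as 1-based 0 had it, so 1 was added. No annotation of that build was used, so exons and introns are not given. Positions of the sequences were read on GRCh38 and are not mixed with these. Sequence orientation was set by the conserved letters of the T arm and by the anticodon.

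Shares of tRNA counts, shares within an isotype, CPM and ratios of shares were computed from R1 unless stated, with mean and SD over the 2 replicates. Calls used a 2-fold ratio and a mean R1 count of at least 10. With 1 group no test was made. Limits from a count of 0 (3 counts) cover counting error only, since PCR reads without molecular identifiers are not independent molecules. The fold rule was tried before use on 1 simulated pair of Poisson count sets with known changes, both drawn from the mean R1 counts. That setting lacks the call in both replicates, the lower depth of R2 and any spread beyond counting error. It therefore says little about the calls made here. The members, lists and tests were chosen with earlier results of these data known. Named are all anticodons, isodecoders with at least 5% of their isotype, the 8 highest copies of each isotype, the extremes of the mate and replicate ratios, and isodecoders led by 1 copy; from these the text gives examples. Other copies named as examples, and the features around copies, were picked with their values in view. The strand split and its alternatives were added after the data were seen. Alternatives were the R2 table, the sum of mates, each replicate left out, lookalikes added, copies inside other features left out, other denominators, folds, minimum counts, and TMM scaling with edgeR 4.0.16 in R 4.3.3. Other software was Python 3.11.15 with scipy 1.17.1, numpy 2.4.6, matplotlib 3.10.9 and pandas 2.3.3.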

Additional observations from a re-analysis of the deposited data

How the results depend on the processing

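Among the comparison values under settings other than a replicate left out, 32 moved by more than 1 SD of the replicates (counts by more than 1.5 times) and 34 did not, and the cause was not tested except where the setting removes counts by construction. Leaving out 1 of 2 libraries can never move a mean by 1 SD, so the 24 further values with a replicate left out are no sign of stability. Without 1 replicate, the share of Gly, His and Pro together was 1.65 to 2.04%. It was 0.569 to 0.703% for Gly, 0.451 to 0.519% for His and 0.629 to 0.815% for Pro. In that setting 7 to 9 of the 66 members were called higher in R2, against 68 to 70 of all 463 tRNA gene copies. Lower were 14 to 16 members, against 131 to 134 of the 463. In R2 the shares of tRNA counts were 2.14% together, 0.807% for Gly, 0.759% for His and 0.571% for Pro, against 1.84%, 0.636%, 0.485% and 0.722% in R1. The sum of mates gave 0.566% for His. Of the library total they took 1.07%, 0.369%, 0.282% and 0.419%. With the 3 highest tRNA copies left out of the total they took 2.85%, 0.983%, 0.750% and 1.12%. Without the highest copy of each isotype, the share was 1.505% together, 0.357% for His and 0.579% for Pro. Without copies inside other features, it was 0.437% for Gly, 0.630% for His and 0.943% for Pro, and 7 isodecoders in place of 11 held at least 5%. At 3-fold, 2 members were higher and 3 lower in R2, against 16 and 70 of the 463. At 1.5-fold 11 were higher, against 120 of the 463. Replicate calls at least 2-fold higher numbered 2, against 14 of the 463. They numbered 1 at 3-fold, against 3, and 9 at 1.5-fold, against 42. With a minimum of 100 they numbered 0, against 1 of 383. In R2, 4 members were higher and 3 lower, against 24 and 18 of the 463. With TMM scaling 0 were higher and 22 lower, against 1 and 286. The median highest over lowest copy was 9.70 in R2 and 4.86 in R1 over all copies, and 1.07 and 1.11 within a strand. Of the shares of single anticodons, isodecoders and copies, 106 moved, 61 up and 45 down, and 56 did not, with 84 more from a replicate left out. The strand split counted 7 member isodecoders under every setting tried except R2, with 8. Among all 45 isodecoders with copies on both strands, it counted 29 to 36 under those settings and 37 in R2. No paired analysis was possible because the labels give a single group.

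Depth limits the low copies most: with 16 and 43 counts, the replicate ratio of tRNA-His-GTG-1-4 rests on few reads, and both copies with a replicate ratio of at least 2 fall below a minimum of 100.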

Other observations

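The tRNA lookalikes of the 3 isotypes that were left out had almost no counts. Of the 5, each had at most 2 counts in any of the 4 tables.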
